A study of Mus musculus with 6 samples.

Results

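The 8 genes described here are *Ucp1*, *Dio2*, *Elovl3*, *Prdm16*, *Ebf2*, *Zic1*, *Lhx8*, and *Otop1*, which are commonly used to recognize brown fat and its heat production. They were found on the arrays as every probe whose RefSeq accession belongs to 1 of these symbols. This gave 10 probes for 8 of the 20630 gene symbols on the array, with 2 probes each for *Zic1* and *Otop1* and 1 probe for each of the others. Their mRNA was measured in interscapular brown adipose tissue (iBAT) from 3 control mice and 3 *ob/ob* mice, all male, on the C57BL/6 background, with 1 single-dye Agilent array per sample. The age label is 16 weeks in both groups. The *ob/ob* mouse carries a mutation of the leptin gene and becomes obese. The labels name the control mice only as control, without stating whether they were littermates, and are silent on pooling of animals, so p values measure only the spread between these samples, which may be technical. Values are log2 signals after quantile normalization, and each difference is *ob/ob* minus control. Only 3 arrays per group stand behind every value.

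Brown adipocytes burn fatty acids in mitochondria to make heat. In the cold, sympathetic nerves release noradrenaline, which acts on β-adrenergic receptors and raises cAMP. This drives transcription of *Ucp1*, the carrier that lets protons re-enter the mitochondrial matrix without making ATP. *Dio2* encodes the deiodinase that makes active thyroid hormone inside the cell, and *Elovl3* encodes an enzyme that lengthens very long chain fatty acids and is induced by cold in brown fat. *Prdm16* and *Ebf2* encode transcription regulators that specify brown adipocytes, *Zic1* and *Lhx8* encode transcription factors used as markers of the interscapular depot, and *Otop1* encodes a proton channel used as a brown adipocyte marker.

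The arrays did not separate cleanly by group. Control 3 resembled *ob/ob* 1 and *ob/ob* 2 (Spearman correlation over the probes tested 0.915 and 0.944) more than control 1 and control 2 (0.642 and 0.730), and *ob/ob* 3 resembled control 1 (0.858) more than *ob/ob* 1 and *ob/ob* 2 (0.573 and 0.488). The spike-in controls added to every sample had a median log2 signal of 6.19 to 7.10 on 5 arrays and of 4.01 on *ob/ob* 3. The 75th percentile of the signal before normalization was 94.4 on control 3 and 134.3 to 291.2 on the other arrays. No spot was saturated, and 83.5% to 89.9% of spots lay well above background. Whether these 2 arrays carry the labels intended for them is in doubt and was not tested, and every difference below takes the labels as given. Values of the 8 genes and of the gene lists are therefore given with all 6 arrays and without control 3 and *ob/ob* 3. These arrays were singled out from the same data for their likeness to the other group. Values without them, p values included, thus describe the other 4 arrays and are not tests of the groups. Without them, 45.9% of all probes passed an adjusted p under 0.05 (limma), against 0% with all 6 arrays.

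With all 6 arrays, *Elovl3* and the brighter probe of *Zic1* were lower on every *ob/ob* array than on every control array. *Ucp1* and *Prdm16* were lower in *ob/ob* iBAT on average (differences of −2.06 and −2.50 log2 units), but their groups overlapped, because control 3 was low and *ob/ob* 3 was higher than the other *ob/ob* arrays. *Dio2* and the brighter probe of *Otop1* differed by −0.16 log2 units, within the spread between arrays. *Ebf2* and *Lhx8* were close to background on several arrays. No probe of the 8 genes passed an adjusted p under 0.05 (limma), and neither did any other probe on the array.

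**Figure D1:**
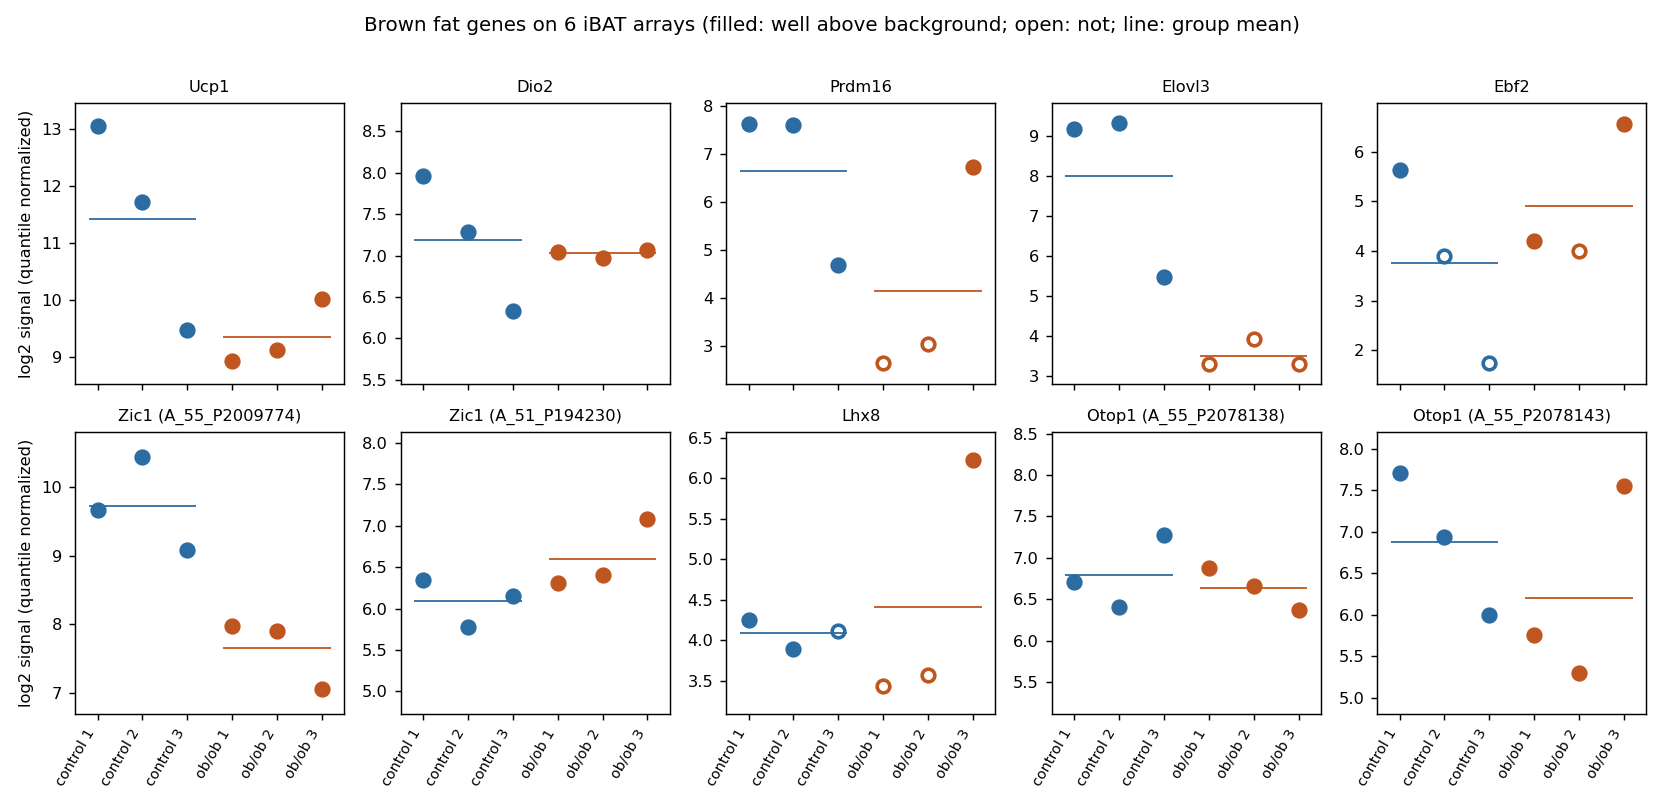
Log2 signal after quantile normalization (y axis) of each of the 10 probes on the 6 arrays (x axis), with controls in blue and ob/ob in orange. Filled points were well above background, open points were not, and lines are group means. All 3 ob/ob points lie below all 3 control points only for Elovl3 and for Zic1 probe A_55_P2009774.

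*Ucp1*, the uncoupling protein that defines brown fat, had log2 signals of 13.05, 11.72, and 9.48 on the control arrays (in the order 1, 2, 3, as throughout) and 8.93, 9.12, and 10.03 on the *ob/ob* arrays. Control 1 and control 2 were the brightest arrays, whereas control 3 lay below *ob/ob* 3. Before normalization between arrays, the processed signal was 13534, 4731, and 371 on the control arrays and 405, 499, and 1107 on the *ob/ob* arrays. The mean difference was −2.06 log2 units (standard error 0.92), which is 4.16-fold lower, with an unadjusted limma p of 0.0642 and an adjusted p of 1. An exact permutation test, two-sided as all such tests here, gave p = 0.20, where 0.10 is the smallest value that 3 arrays against 3 allow. With 1 array left out, the difference ranged from −1.24 without control 1 to −3.03 without control 3, and only in the latter case was *Ucp1* lower at an unadjusted p under 0.05. On the 4 arrays left without control 3 and *ob/ob* 3, the difference was −3.36 (standard error 0.40, adjusted p = 3.13e-04 by limma), or 10.3-fold lower. In bulk tissue, fewer brown adipocytes and less *Ucp1* mRNA per cell cannot be told apart.

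Promoter sequence is shown for *Ucp1* and *Dio2* because cAMP signaling acts on both genes. The windows are the 250 bases before the RefSeq start on assembly GRCm38.p6, printed 5′ to 3′ on the strand of the gene, and capitals mark the motif matches found by search. A window was at hand for 6 of the 8 genes, without *Elovl3* and *Ebf2*. The *Ucp1* window lies at chr8:83290098-83290347 on the plus strand, and the *Dio2* window at chr12:90739039-90739288 on the minus strand.
Ucp1: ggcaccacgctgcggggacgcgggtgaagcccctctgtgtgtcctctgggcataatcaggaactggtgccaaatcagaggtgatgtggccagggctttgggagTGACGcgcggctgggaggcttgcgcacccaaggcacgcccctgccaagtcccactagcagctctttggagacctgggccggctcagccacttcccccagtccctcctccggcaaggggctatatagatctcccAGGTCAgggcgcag
Dio2: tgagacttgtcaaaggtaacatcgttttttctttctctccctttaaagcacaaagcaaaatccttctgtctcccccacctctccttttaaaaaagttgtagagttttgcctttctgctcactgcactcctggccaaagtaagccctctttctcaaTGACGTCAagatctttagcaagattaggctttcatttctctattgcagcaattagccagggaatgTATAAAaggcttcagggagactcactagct
The *Ucp1* window holds the core of the cAMP response element, TGACG, starting 147 bases before the start site, and the nuclear receptor core AGGTCA, starting 14 bases before it. The *Dio2* window holds the full cAMP response element TGACGTCA 95 bases before the start and a TATA box, TATAAA, 30 bases before it. TGACG lies within TGACGTCA, so the core matches of *Dio2* are the same site read on each strand. Searched on both strands, TGACG was found in 17.8% of 32851 RefSeq windows of the same length, AGGTCA in 14.0%, TGACGTCA in 1.55%, and TATAAA in 12.4%. The motifs TCCCNNGGG, bound by EBF factors and found in 5.60% of windows, and TTGCGCAA, bound by C/EBP factors and found in 0.164%, were in none of the 6 windows searched. None of the 6 motifs was found in the windows of *Prdm16*, *Zic1*, *Lhx8*, or *Otop1*. A match describes letters in the window and not a site in use.

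*Elovl3*, the fatty acid elongase, showed the largest difference of the 10 probes. It read 9.20, 9.35, and 5.48 on the control arrays and 3.30, 3.92, and 3.29 on the *ob/ob* arrays. All 3 controls were well above background, and no *ob/ob* array was, so the level in *ob/ob* iBAT is only bounded from above. With each *ob/ob* array set to the lowest signal that counted as well above background on it, or to its own value where higher, the fall was 15.8-fold. The measured means differed by −4.51 log2 units (standard error 1.06, unadjusted limma p = 0.00470, exact permutation p = 0.10). Leaving out 1 array moved the 15.8-fold figure to between 9.97-fold (without control 2) and 38.0-fold (without control 3). It also fell by over 1.5 times without control 1, where the measured difference was −3.91. Control 3 lay 3.79 log2 units below the mean of the other controls and still above every *ob/ob* array. On the 4 arrays, the same setting of the *ob/ob* arrays gave a 41.2-fold fall (limma adjusted p = 1.31e-05 for the measured difference of −5.67). The size depended on the background correction, since normexp, which lifts dim signals, gave −2.29, or 4.88-fold lower. The folds set by the lowest signals are therefore not lower limits.

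*Dio2* gave 7.95, 7.29, and 6.34 on the control arrays and 7.05, 6.97, and 7.07 on the *ob/ob* arrays. The *ob/ob* values spanned 0.10 log2 units and lay inside the 1.62 spanned by the controls. The difference was −0.16 (standard error 0.47, unadjusted limma p = 0.743, exact permutation p = 0.70). On the 4 arrays it was −0.61 (standard error 0.28, adjusted p = 0.111), and without control 1 it turned to 0.22. Its sign thus rested on single arrays.

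Among the transcription regulators, *Prdm16* gave 7.62, 7.60, and 4.68 on the control arrays and 2.64, 3.04, and 6.72 on the *ob/ob* arrays. It was well above background on every array except *ob/ob* 1 and *ob/ob* 2, and *ob/ob* 3 lay above control 3. The difference was −2.50 (standard error 1.32, unadjusted limma p = 0.105, exact permutation p = 0.20). Because 2 *ob/ob* arrays read it at background, this size depends on values that only bound the level. With 1 array left out it ranged from −1.75 (without *ob/ob* 1) to −3.79 (without *ob/ob* 3). *Prdm16* was called lower by unadjusted p and 2-fold without control 3 and without *ob/ob* 3. With the scan as a block, which compares *ob/ob* 1 alone with control 1 and control 3, the difference was −3.51. On the 4 arrays, with *ob/ob* 1 and *ob/ob* 2 set to their lowest such signals as for *Elovl3*, *Prdm16* was 13.0-fold lower. The measured difference was −4.77 (standard error 0.24, limma adjusted p = 1.40e-05). With normexp background correction and all 6 arrays, the difference was −0.94. A probe of the large ribosomal RNA (*Rn28s1*) followed nearly the same pattern, at 16.54, 16.41, and 13.42 on the control arrays and 11.67, 11.33, and 15.85 on the *ob/ob* arrays, and its part in the *Prdm16* result was not tested.

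*Zic1*, a transcription factor that marks the interscapular depot, was read by 2 probes of the same RefSeq transcript that went different ways. The brighter probe, A_55_P2009774, gave 9.66, 10.43, and 9.08 on the control arrays and 7.97, 7.90, and 7.06 on the *ob/ob* arrays. Every *ob/ob* array was below every control array, and control 3 stayed with the controls. The difference was −2.08 (standard error 0.48, unadjusted limma p = 0.00446, exact permutation p = 0.10), or 4.23-fold lower. It was −2.11 on the 4 arrays (adjusted p = 6.81e-04). With the scan as a block, the difference was −1.40, which rests on *ob/ob* 1 alone against control 1 and control 3, so no p is given.

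The other *Zic1* probe, A_51_P194230, gave 6.35, 5.78, and 6.15 on the control arrays and 6.31, 6.40, and 7.08 on the *ob/ob* arrays. Its groups overlapped, and its difference was 0.51 (standard error 0.37, unadjusted limma p = 0.218, exact permutation p = 0.20). It differed by 0.29 on the 4 arrays (adjusted p = 0.414). The groups of this probe did not overlap, with *ob/ob* higher, with the 75th percentile, without control 1, and without *ob/ob* 1. The changes of the 2 probes differed by −2.59 log2 units, with an exact permutation p of 0.10, the smallest that the design allows. The gap between the probes was 2.93 to 4.66 on the control arrays and −0.02 to 1.66 on the *ob/ob* arrays, so the groups did not overlap in it. The lower signal of *Zic1* in *ob/ob* iBAT thus rests on 1 of its 2 probes, and the sequences of the probes were not at hand to tell which part of the transcript each reads.

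*Ebf2*, which with *Prdm16* specifies the brown lineage, gave 5.63, 3.91, and 1.75 on the control arrays and 4.20, 4.0, and 6.55 on the *ob/ob* arrays. It was well above background only in control 1, *ob/ob* 1, and *ob/ob* 3, and *ob/ob* 3 was the brightest array. The difference of 1.15 (standard error 1.14, unadjusted limma p = 0.350, exact permutation p = 0.40) was about its own standard error. Its direction turned to −0.67 (adjusted p = 0.305) on the 4 arrays.

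*Lhx8*, another depot marker, gave 4.25, 3.90, and 4.11 on the control arrays and 3.43, 3.57, and 6.23 on the *ob/ob* arrays. Control 1, control 2, and *ob/ob* 3 were well above background. The controls lay within 0.36 log2 units of each other, and *ob/ob* 3 lay 2.73 above the mean of the other *ob/ob* arrays. With all arrays the difference was 0.32 (standard error 0.78, unadjusted limma p = 0.692, exact permutation p = 1), and on the 4 arrays it was −0.57 (adjusted p = 0.0886).

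*Otop1*, the proton channel, was also read by 2 probes of the same RefSeq transcript, both well above background on all 6 arrays. Probe A_55_P2078138 gave 6.70, 6.41, and 7.27 on the control arrays and 6.88, 6.66, and 6.36 on the *ob/ob* arrays, a difference of −0.16 (standard error 0.37, unadjusted limma p = 0.684, exact permutation p = 0.60). Probe A_55_P2078143 gave 7.71, 6.94, and 6.00 on the control arrays and 5.75, 5.30, and 7.56 on the *ob/ob* arrays, a difference of −0.68 (standard error 0.73, unadjusted limma p = 0.389, exact permutation p = 0.40). On the latter probe control 3 sat low and *ob/ob* 3 sat high, as for *Prdm16*, and on the former they did the reverse. Without these 2 arrays the differences were 0.22 (adjusted p = 0.506) and −1.80 (standard error 0.31, adjusted p = 0.00211). The changes of the 2 probes differed by 0.52 over all arrays (exact permutation p = 0.90).

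**Figure D2:**
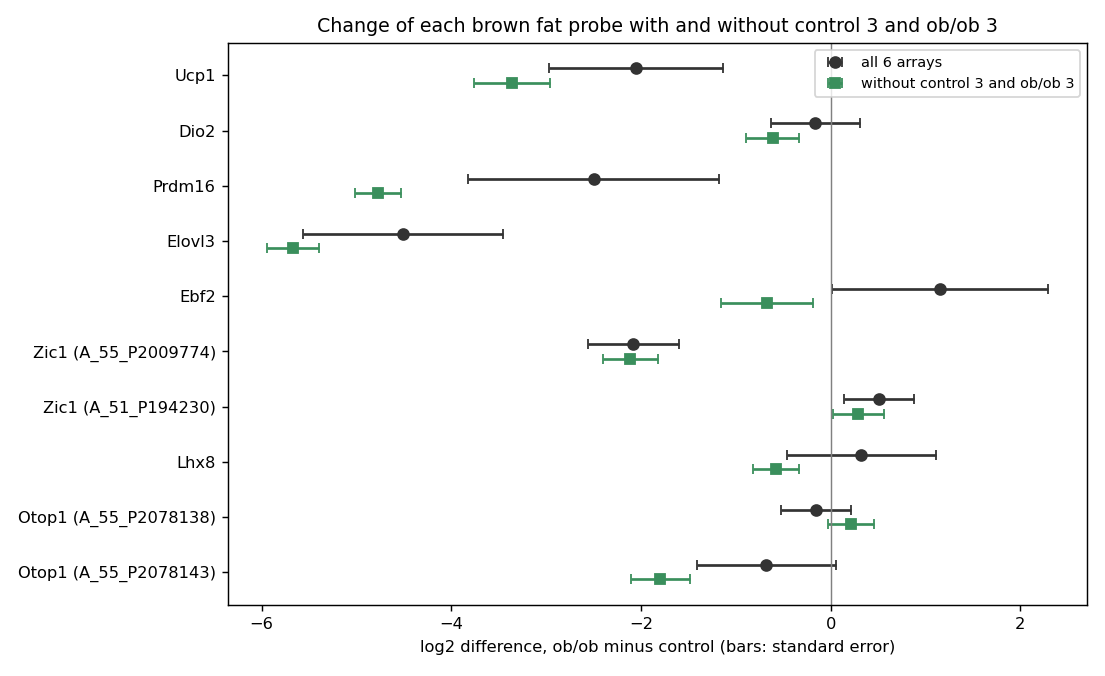
Log2 difference, ob/ob minus control (x axis), of each probe (y axis) over all 6 arrays (black circles) and without control 3 and ob/ob 3 (green squares), with standard errors as bars. The difference of Zic1 probe A_55_P2009774 was −2.08 and −2.11, whereas that of Prdm16 went from −2.50 to −4.77 and that of Ebf2 from 1.15 to −0.67. Elovl3 in ob/ob, and Prdm16 in ob/ob 1 and 2, were not well above background.

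By the counts, 0 of the 10 probes passed an adjusted p under 0.05, against 0% of the 35448 probes tested (limma), and the lowest adjusted p of any probe was 0.154. At an unadjusted p under 0.05 without a threshold on size, limma called 2 of the 10 probes and 1245 of all 35448. The methods' t-test called 2 of the 10 and 1512 of all 35448. At the adjusted threshold the methods' t-test called 0 of all probes, and limma with its trend and robust options called 1, which was none of the 10. With both an unadjusted p under 0.05 and a fall of 2-fold or more, 2 of the 10 (*Elovl3* and *Zic1*) were called, against 1.35% of all probes. Groups that did not overlap, with *ob/ob* lower, were found for the same 2 probes, against 4.19% of all probes. Without control 3 and *ob/ob* 3, 5 of the 10 were lower past an adjusted p under 0.05 (*Elovl3*, *Prdm16*, *Ucp1*, *Zic1*, and *Otop1*, the last 2 with 1 probe each), against 23.0% of all probes. No probe of the 8 genes was higher at an unadjusted p under 0.05 and 2-fold in either case. All 10 probes passed the detection filter, 6 of them on all 6 arrays. *Elovl3* passed it through the 3 control arrays alone, where it is high, so its call is not independent of the filter. *Prdm16*, *Ebf2*, and *Lhx8* passed it through some arrays of both groups. The count thus describes these probes and is not a test of the group.

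Control 1, control 3, and *ob/ob* 1 were read in the same scan, and each of the other arrays in a scan of its own. Within that scan *ob/ob* 1 differed from the mean of the 2 controls by −2.33 log2 units for *Ucp1*, −4.05 for *Elovl3*, −3.51 for *Prdm16*, and −1.40 for the brighter *Zic1* probe. The same contrast was −0.10 for *Dio2*, 0.51 for *Ebf2*, −0.75 for *Lhx8*, and −0.11 and −1.10 for the *Otop1* probes. It rests on 1 *ob/ob* array and is the same difference as with the scan as a block. For the other arrays the scan and the array cannot be told apart.

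**Figure D3:**
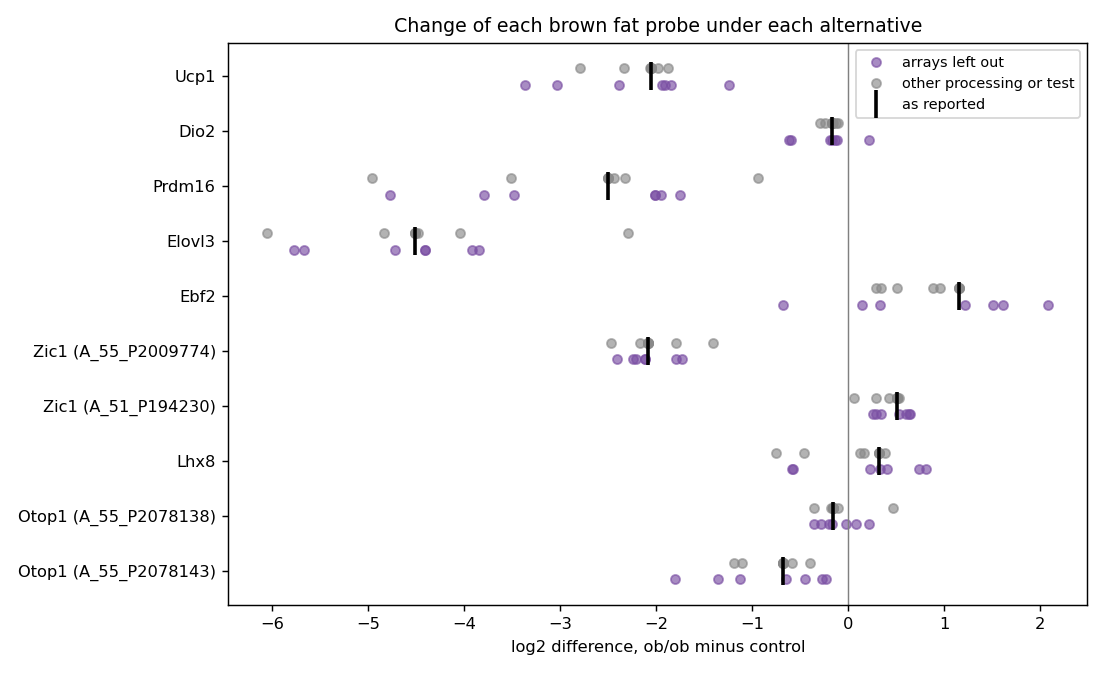
Log2 difference, ob/ob minus control (x axis), of each probe (y axis) as reported (black bar), with other processing or tests (gray) and with arrays left out (purple). All points of Ucp1, Prdm16, Elovl3, and the brighter Zic1 probe lie below 0, whereas those of Dio2, Ebf2, Lhx8, and Otop1 probe A_55_P2078138 fall on both sides of 0.

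Relatives of the 8 genes were described in the same way. The other uncoupling proteins, *Ucp2* and *Ucp3*, differed by 0.28 and −0.32 log2 units, with groups that overlapped. Of the other elongases, *Elovl1*, *Elovl2*, *Elovl4*, *Elovl5*, *Elovl6*, and *Elovl7* differed by −0.34, 0.42, −0.18, −1.36, −0.27, and 0.68. Only *Elovl7* did not overlap between groups, with *ob/ob* higher, and it was well above background on 1 control array and 3 *ob/ob* arrays. *Elovl5*, which elongates polyunsaturated fatty acids, gave 10.00, 9.70, and 6.75 on the control arrays and 6.66, 6.09, and 9.60 on the *ob/ob* arrays, with control 3 low and *ob/ob* 3 high. The other deiodinases, *Dio1* and *Dio3*, differed by −0.24 and 0.55.

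Among relatives of the transcription factors, *Ebf1*, *Ebf3*, and *Ebf4* differed by 0.13, −1.44, and 0.40. *Zic2* and *Zic4* differed by −0.72 and 0.15, whereas the brighter *Zic1* probe differed by −2.08. *Lhx6*, the LIM homeobox gene closest to *Lhx8*, gave 12.57, 13.96, and 11.32 on the control arrays and 11.35, 11.13, and 8.58 on the *ob/ob* arrays, a difference of −2.27 (standard error 0.97), with overlapping groups. The other *Lhx* genes tested, *Lhx1*, *Lhx2*, *Lhx3*, and *Lhx9*, lay between −0.08 and 0.74. *Mecom*, the relative of *Prdm16*, differed by 0.17, and *Otop2* and *Otop3*, relatives of *Otop1*, by 0.60 and 0.58. Of the relatives of the transcription factors and of *Otop1*, 14 of 17 were tested, and 0 passed an unadjusted p under 0.05 with a 2-fold difference. Scaling to the 75th percentile moved the median of all genes from −0.09 to −0.30, and with it the differences of *Ucp2*, *Zic4*, *Lhx1*, *Lhx2*, and *Mecom* turned from above to below 0 (−0.10, −0.20, −0.09, −0.24, and −0.04). On the 4 arrays, *Ucp3*, *Elovl5*, *Ebf3*, and *Lhx6* differed by −0.87, −3.47, −2.78, and −2.03. Of the 14 relatives, 3 were called lower there, against 23.1% of all genes, and 5 higher, against 16.6%.

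The wider thermogenic program was described from a list of 25 genes of fatty acid oxidation, respiration, and adrenergic signaling, of which 24 were tested with the brightest probe of each. All 24 were well above background on all 6 arrays. In *ob/ob* iBAT 19 of them were lower and 5 higher, with a median difference of −0.72 log2 units, against −0.09 over the 19011 genes tested. The rule of an unadjusted p under 0.05 with a fall of 2-fold or more was met by 4 of the 24, against 1.50% of all genes, and the same rule for rises was met by 0, against 1.69%. Without control 3 and *ob/ob* 3 the median was −1.93, and 16 of the 24 were called lower, against 23.1% of all genes. On the same 4 arrays the 9 markers of adipocytes in general had a median of −1.92, and 8 of them were called lower.

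The 4 genes called with all arrays were *Adrb3*, *Ppargc1b*, *Ppargc1a*, and *Cpt1b*. *Adrb3*, the β3-adrenergic receptor through which cold acts on brown adipocytes, gave 13.45, 12.90, and 9.34 on the control arrays and 7.19, 7.04, and 7.98 on the *ob/ob* arrays (difference −4.49, standard error 1.09). *Ppargc1b* and *Ppargc1a*, coactivators of mitochondrial genes, differed by −3.75 (standard error 0.70) and −2.91 (standard error 0.87). *Cpt1b*, which brings fatty acids into mitochondria, differed by −1.67 (standard error 0.50). In each of the 4, every *ob/ob* array was below every control array, but they were called from these same arrays, so this adds no support. Such a lack of overlap was found for 5 of the 24 genes tested in the list and for 803 of all 19011 genes. Their adjusted p was 1 (limma). The differences of *Adrb3*, *Ppargc1b*, *Ppargc1a*, and *Cpt1b* on the 4 arrays were −6.06, −4.87, −4.35, and −2.11.

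The other lists stood closer to all genes. Of 23 transcription regulators of brown fat tested, 13 were lower and 10 higher, with a median of −0.04, and 0 were called. Of 8 genes of the brown lineage tested, 6 were lower, with a median of −0.28, and 0 were called. The thyroid hormone axis, in which *Dio2* acts, had 7 of 14 genes lower and a median of 0.03. In it *Ncor1*, a corepressor of nuclear receptors, was called higher (difference 1.1, standard error 0.35), as were 1.69% of all genes. Fatty acid elongation, in which *Elovl3* acts, had 6 of 12 lower, a median of −0.01, and 0 called. The carriers related to *Ucp1* had 3 of 7 lower and a median of 0.28, with 0 called. Without control 3 and *ob/ob* 3, the numbers called lower were 11, 3, 3, 5, and 1, in the same order of lists, against 23.1% of all genes, and those called higher were 2, 1, 5, 0, and 1, against 16.6%. With the 75th percentile the medians of the thyroid hormone axis and of the carriers turned to −0.17 and −0.10.

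**Figure D4:**
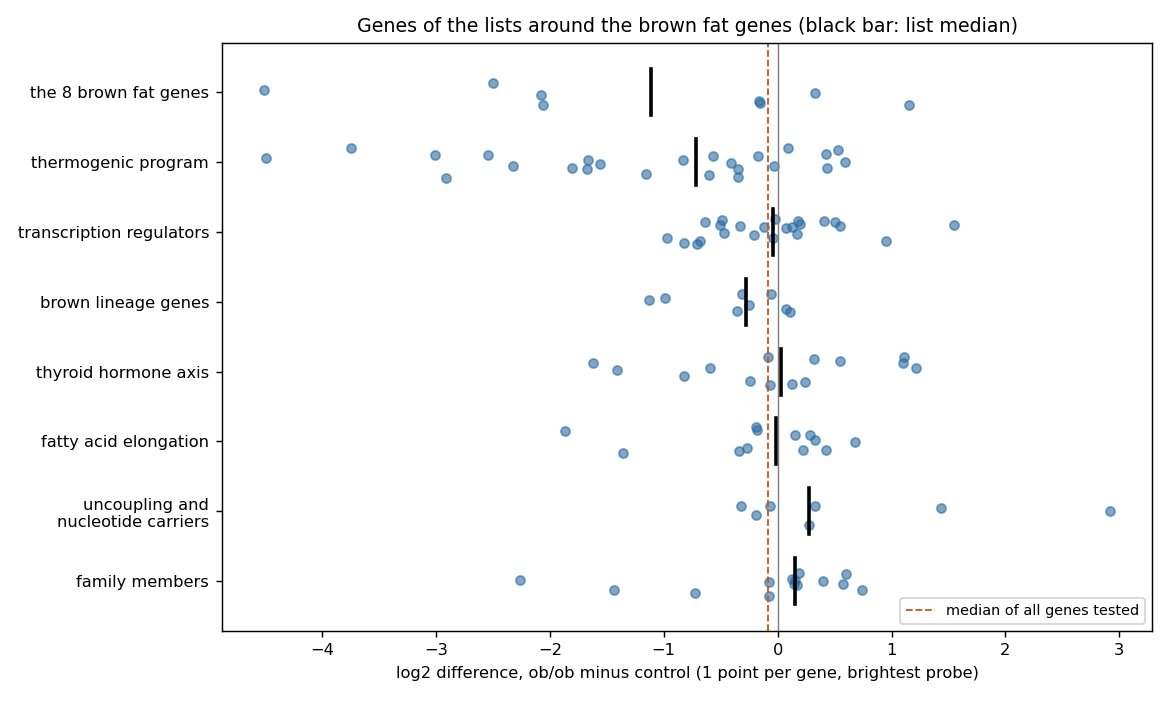
Log2 difference, ob/ob minus control (x axis), of each gene (points, brightest probe) in the 8 brown fat genes and 7 lists (y axis), with list medians as black bars and the median of all genes tested, −0.09, as a dashed line. The thermogenic program has a median of −0.72, whereas the medians of the other 6 lists lie between −0.28 and 0.28.

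Markers of other cell types moved across the same arrays. The 9 adipocyte markers were well above background on all 6 arrays, and their summed signal on the linear scale was 18292 to 152065 on the control arrays and 30121 to 124650 on the *ob/ob* arrays, lowest in control 3. Of these 9, 6 were lower in *ob/ob* iBAT (median −0.56). On the 4 arrays 8 were called lower (median −1.92), against 23.1% of all genes. The 14 skeletal muscle markers summed to 52943, 76638, and 6197 on the control arrays and to 1234, 1326, and 180846 on the *ob/ob* arrays. Of these 14, 13 were lower in *ob/ob* iBAT on average (median −1.14, or −3.02 on the 4 arrays), and none was below background on every array. *Prdm16*, *Ucp1*, and *Otop1* probe A_55_P2078143 were, like the muscle markers, low in control 3 and higher in *ob/ob* 3 than in the other *ob/ob* arrays, whereas the brighter *Zic1* probe was lower in *ob/ob* 3 than in the other *ob/ob* arrays, and *Elovl3* was not well above background on any of them. The part of muscle in these results was not tested.

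Endothelial markers were lower for 7 of 8 genes (median −1.39, or −2.97 on the 4 arrays), with sums of 6866 to 13418 on the control arrays and 5311 to 6626 on the *ob/ob* arrays. Fibroblast and preadipocyte markers were lower for 7 of 8 (median −0.51), with sums of 1745 to 7910 on the control arrays and of 1016, 1026, and 21996 in *ob/ob* 1, 2, and 3. Macrophage markers were higher for 6 of 9 (median 0.53), and *Trem2*, a receptor of lipid-laden macrophages, was called higher (difference 2.25, standard error 0.61), although the macrophage sum was 5988 to 15620 on the control arrays and 3659 to 6483 on the *ob/ob* arrays. White adipocyte markers were lower for 7 of 11 and higher for 4 (median −0.17), with *Retn* called lower (−1.98, standard error 0.76). On the 4 arrays only 3 of these 11 were lower, and their median turned to 0.17. Beige markers were lower for 3 of 7 (median 0.12, but −0.29 with the 75th percentile). The lists of lymphocytes, erythrocytes, and nerve and glia had medians of −0.03, −0.26, and 0.16. In the lymphocyte list *Ms4a1*, of B cells, was called higher (1.16), and in the muscle list *Mylpf* was called higher (1.19). Of all genes, 1.69% were called higher and 1.50% lower by the same rule. The part of these cell types in the results was not tested.

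**Figure D5:**
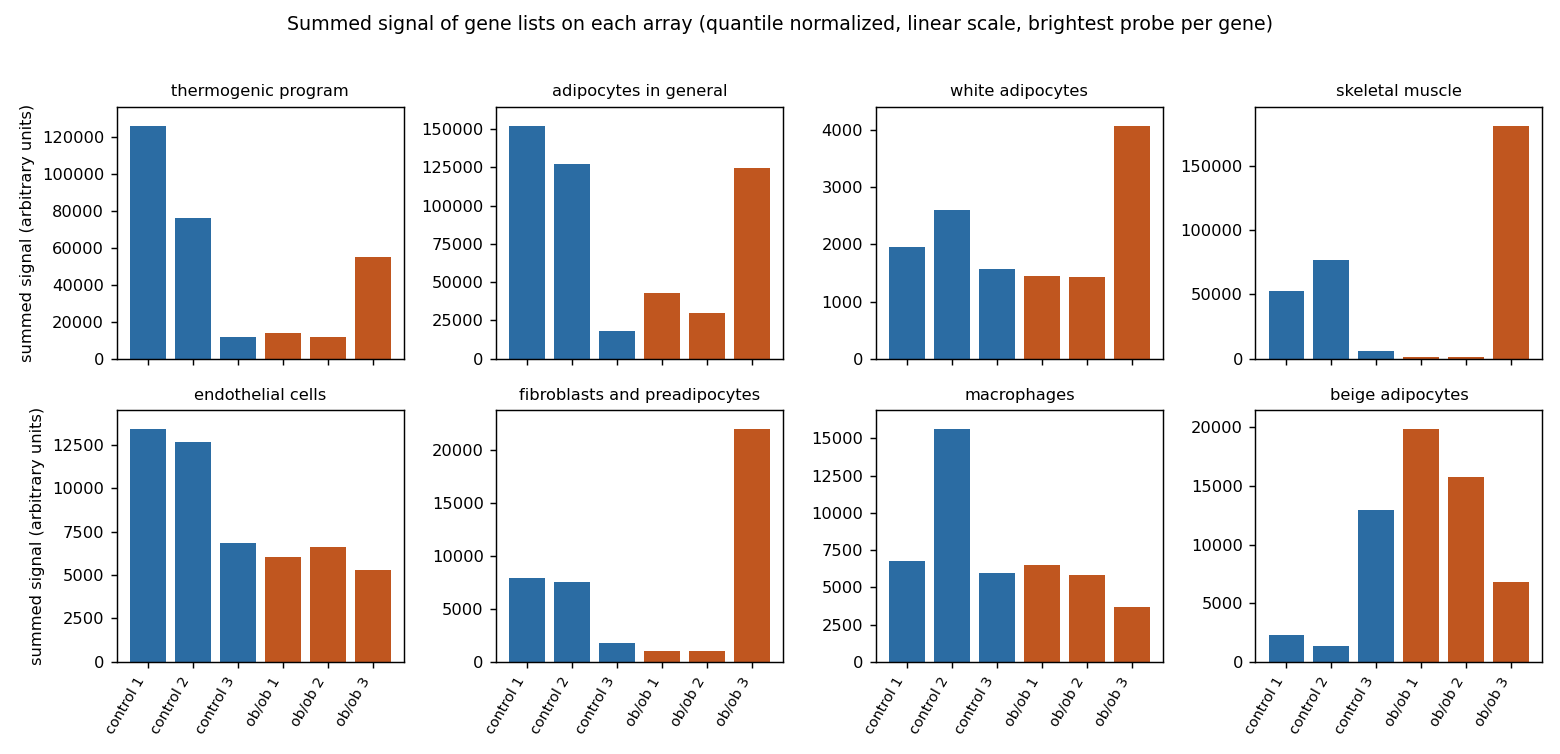
Summed signal (y axis, linear scale after quantile normalization) of the genes of 8 lists on each of the 6 arrays (x axis), controls in blue and ob/ob in orange. Skeletal muscle markers sum to 180846 on ob/ob 3 and to 1326 or less on ob/ob 1 and 2, and thermogenic genes are brightest on control 1 and 2. Sums are dominated by the brightest probes of a list.

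*Lep*, the mutated gene, gave 5.74, 4.57, and 5.30 on the control arrays and 6.68, 5.83, and 9.33 on the *ob/ob* arrays (difference 2.07, standard error 0.93). Every *ob/ob* array was above every control array, and the difference was 1.1 on the 4 arrays. The *ob/ob* mutation is a premature stop that leaves a transcript, so the presence of *Lep* mRNA does not tell the groups apart. Control 3 lay between the other controls, and *ob/ob* 3 was the highest array. What the level says of the labels was not tested.

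The genes whose pattern over the 6 arrays was nearest to each member were found as the smallest root-mean-square difference of log2 values after each gene's own mean was removed, over 12785 genes that varied. For *Ucp1* these were *Parm1* (0.28), *Letmd1* (0.29), and *Fasn* (0.30), where *Ucp1* itself varied by 1.5 about its mean. For *Elovl3*, which varied by 2.59, they were *Adrb3* (0.50), *Aspg* (0.53), and *Fmnl2* (0.94). For the brighter *Zic1* probe, which varied by 1.15, they were *Krtap10-10* (0.10), *Aqp7* (0.11), and *Nova1* (0.15). *Prdm16*, which varied by 2.05, was nearest to *Retnla* (0.23), *Rn28s1* (0.27), and *Cbx7* (0.30).

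The dimmer or flatter members had other neighbors. *Dio2* was nearest to *Olfr1487* (0.13), *Chchd10* (0.14), and *Rnf181* (0.14), against its own variation of 0.48. *Ebf2* was nearest to *Hsdl2* (0.29), *Tes* (0.30), and *Impa1* (0.31), and *Lhx8* to *Aga* (0.14), *Rassf8* (0.14), and *Ncf4* (0.15). The brighter *Otop1* probe varied by 0.30, and its neighbors *Kifc5b*, *Nr1i2*, and *Flicr* lay 0.20, 0.20, and 0.21 away, so the measure says little there. No neighbor was shared by any pair of the 8 genes. With 6 arrays, many genes share a pattern, and the likeness is a description.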

How the data were processed

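RNA of iBAT from 3 control and 3 *ob/ob* mice was labeled with Cy3 and hybridized to 6 Agilent mouse arrays. The deposited scanner files, written by Agilent Feature Extraction 11.0.1.1, hold a background-corrected intensity per spot, not normalized between arrays. A further deposited table holds log2 values that the authors had quantile normalized. Its columns correlated at 0.987 to 0.998 with the scanner values and they served as an alternative.

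Outlier spots were left out, and 104 of 39429 probes without a value on every array were dropped. Log2 intensities were averaged per probe, brought to the same distribution by quantile normalization, and compared by limma (version 3.58.1, R 4.3.3). A probe needed detection on 3 or more of the 6 arrays, which kept 35448. Detection required 50% of the spots of a probe to be well above background. Adjusted p values follow Benjamini and Hochberg over all probes tested. The fit was tested on simulated data with independent noise for each probe and array. The real arrays share deviations over many probes, so that simulation cannot show how the p values behave on them. Probes were named through RefSeq (94.9% of those with a RefSeq accession), and promoters came from RefSeq GRCm38.p6. The probe annotation is on another build, so no gene coordinates are given. Tables and figures used Python 3.11.15 with numpy 2.4.6, pandas 2.3.3, and matplotlib 3.10.9.

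The genes and lists were chosen with earlier results of these data known, so no p adjusted over them alone is given. The text names all probes of the 8 genes, the 3 genes nearest in pattern to each, relatives of the 8 genes, *Lep*, and list genes that differed 2-fold or more at an unadjusted p under 0.05. A few genes of these lists are not reported here. *Rn28s1* is shown with its values after these were seen. Alternatives were the 75th percentile, normexp (offset 50), the authors' values, other detection filters, an intensity trend with robust estimation, the methods' t-test, array quality weights, the replicate number or the scan as a block, and leaving out arrays. Same-numbered control and *ob/ob* arrays deviated oppositely from their group means (correlations −0.781, −0.658, and −0.850). With the labels of control 3 and *ob/ob* 3 in doubt, these values cannot tell whether the numbers pair the arrays, and no pairing was used in the main fit.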

Additional observations from a re-analysis of the deposited data

How the results depend on the processing

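The negative differences of *Ucp1*, *Prdm16*, *Elovl3*, and the brighter *Zic1* probe kept their direction in every alternative in which they were tested. *Dio2* turned without control 1 and ranged from −0.59 to 0.22 when 1 array was left out. *Ebf2* turned to −0.67 without control 3 and *ob/ob* 3. *Lhx8* turned to −0.46 with array quality weights, −0.75 with the scan block, and −0.57 without control 3 and *ob/ob* 3, and ranged from −0.59 to 0.81 with 1 array left out. The *Otop1* probe A_55_P2078138 turned to 0.47 with array quality weights and 0.22 without control 3 and *ob/ob* 3, and ranged from −0.35 to 0.08 with 1 array left out.

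When detection on all 6 arrays was required, 6 of the 10 probes were tested. Of these, 1 (*Zic1*) was called lower by p and fold, against 1.52% of all probes, and 1 did not overlap, against 4.22%. The array quality weights, whose estimation did not converge, called 5 lower by p and fold, against 16.0% of all probes. By adjusted p they called 10, but also 33169 of all 35448 probes. With 1 array left out, 2 to 4 were called by p and fold (4 without control 3, adding *Prdm16* and *Ucp1*, against 3.30% of all probes lower) and 2 to 6 did not overlap (6 without *ob/ob* 3, against 12.9%). Without control 3 and *ob/ob* 3, 5 were lower by p and fold, against 19.2% of all probes. By adjusted p 5 were lower, against 23.0%, and 7 did not overlap, against 32.6%.

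Over all probes, p and fold called 478 lower and 598 higher. The calls were 312 and 139 with the 75th percentile, 310 and 128 with normexp, 313 and 327 with the methods' t-test, 5678 and 5308 with array weights, and 113 and 35 with the scan block. Detection on all arrays left 394 higher. With 1 array left out, 173 to 1170 were lower (lowest without control 2, highest without control 3) and 112 to 1762 higher. Without control 3 and *ob/ob* 3 there were 6789 and 5869, and 16259 past the adjusted p. Trend and robust estimation gave 1 past it. The share of calls that were higher was 55.6%, but 30.8% with the 75th percentile, which moved the median of all probes from −0.07 to −0.32. The replicate block, a shared number only, left 220 lower and 139 higher and changed no call of the 10 probes.

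Without control 3 and *ob/ob* 3 the list medians were −1.93 for the thermogenic program, −1.92 for adipocytes in general, −3.02 for skeletal muscle, −2.97 for endothelial cells, −0.82 for brown fat regulators, −0.54 for carriers, 0.82 for beige, 0.36 for macrophage, 0.37 for lymphocyte, −1.52 for erythrocyte, and −2.61 for fibroblast markers. The lymphocyte median was −0.37 with the 75th percentile, and the macrophage median 0.28 to 0.71 with 1 array left out. The white adipocyte median turned to 0.17 without control 3 and *ob/ob* 3. The causes were not tested. Signal over background limits *Elovl3*, *Prdm16*, *Ebf2*, and *Lhx8*.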
